A study of Mus musculus with 28 samples.

Results

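Enzymes of xenobiotic metabolism were followed in RNA from the mouse choroid plexus, the epithelial tissue of the brain ventricles that secretes cerebrospinal fluid and forms the barrier between blood and that fluid. The set holds 10 genes, Sult1a1, Aox3, Aox1, Cyp2s1, Cyp1b1, Por, Ephx1, Gstm1, Gsta4 and Fmo1, of 27179 genes counted. It was put together around Sult1a1, Aox3 and Cyp2s1, which were chosen by their CPM in these same libraries, because it differed with time of day or genotype. For those 3 genes the values by time and genotype are therefore a description and carry no p-value. The other 7 were also chosen with earlier results of these data known, so their p-values may not be independent of that choice. All 10 genes passed the filter on low counts in both cohorts.

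Foreign compounds are cleared in 2 chemical stages. In phase I, cytochromes P450, flavin monooxygenases and aldehyde oxidases add or expose a reactive group, and epoxide hydrolase opens reactive epoxides. In phase II, sulfotransferases and glutathione transferases attach a water-soluble group, after which transporters carry the product out. The choroid plexus is known for a strong conjugating capacity of this kind, which limits the passage of drugs and environmental chemicals from blood into cerebrospinal fluid.

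Lateral ventricle choroid plexus was taken from 28 male mice, 1 library per mouse, in 7 groups of 4. The J20+ mice bear a transgene for human APP, the amyloid precursor protein, with mutations of familial Alzheimer's disease and under the PDGF-B promoter. They were killed at 12 to 14 months at zeitgeber time 18 (ZT18, hours after lights on, here called night) or at ZT6 (day), and their J20- littermates, here called aged wild-type, were taken at the same ages and times. Wild-type C57/BL6 mice of 3 to 4 months were taken at ZT18 (labelled awake), at ZT6 after 6 h of sleep disruption, or at ZT6 undisturbed (labelled sleep). Between young night and undisturbed day, time of day and sleep or waking therefore cannot be told apart. The young libraries are labelled batch 1 and the aged ones batch 2, so a difference in level between young and aged mice cannot be told apart from batch. Total counts were 14.6M to 43.9M per aged library and 22.5M to 29.0M per young library. Levels are given as CPM, which is counts scaled by library size after adjustment of that size by TMM scaling, as in the fit. They therefore differ from counts divided by the total counts given above.

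Markers of choroid epithelium (13 genes such as Ttr) were high in all groups, with mean scores of 9.95 to 10.69 log2 CPM. The libraries also held other tissue in unequal amounts. A score of 25 neuronal, oligodendrocyte and astrocyte genes ran from 1.25 to 7.08 log2 CPM over the 16 aged libraries, against 1.61 to 3.51 over the 12 young ones (24 of the genes scored), and 1 of these genes was at 0 in 1 aged library. It stood above 5 in 6 aged libraries, namely aged wild-type night 1, 2 and 4, aged wild-type day 3, J20+ night 2 and J20+ day 1. In whole tissue, fewer cells of a type and less RNA per cell cannot be told apart.

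The starts of 4 genes are shown. They are the 3 genes the set was built around, of which Aox3 passed edgeR's test in no comparison, and Por, the 1 member outside these 3 that did pass. Each window runs from 250 bases before an annotated start to 50 bases after it, in RefSeq's GRCm38.p6, written 5′ to 3′ on the gene's own strand. Capitals mark the matches to the searched motifs. In the Sult1a1 window they are the half-site AGAACA of the glucocorticoid receptor and its reverse complement TGTTCT. In the Por and Aox3 windows they are the core GCGTG of the element bound by the aryl hydrocarbon receptor and its reverse complement CACGC. The Cyp2s1 window held none of the searched motifs.

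Sult1a1: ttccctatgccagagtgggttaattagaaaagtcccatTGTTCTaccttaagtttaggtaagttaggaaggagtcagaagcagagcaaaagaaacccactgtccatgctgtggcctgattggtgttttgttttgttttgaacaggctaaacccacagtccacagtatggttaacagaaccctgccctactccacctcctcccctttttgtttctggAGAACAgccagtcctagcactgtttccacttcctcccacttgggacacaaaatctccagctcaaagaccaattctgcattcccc

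Cyp2s1: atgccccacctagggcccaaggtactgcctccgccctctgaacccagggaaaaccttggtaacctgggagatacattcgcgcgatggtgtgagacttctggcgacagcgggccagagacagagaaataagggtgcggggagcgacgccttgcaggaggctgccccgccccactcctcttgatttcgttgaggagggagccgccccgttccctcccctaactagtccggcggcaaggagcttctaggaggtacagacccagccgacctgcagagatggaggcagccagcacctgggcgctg

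Por: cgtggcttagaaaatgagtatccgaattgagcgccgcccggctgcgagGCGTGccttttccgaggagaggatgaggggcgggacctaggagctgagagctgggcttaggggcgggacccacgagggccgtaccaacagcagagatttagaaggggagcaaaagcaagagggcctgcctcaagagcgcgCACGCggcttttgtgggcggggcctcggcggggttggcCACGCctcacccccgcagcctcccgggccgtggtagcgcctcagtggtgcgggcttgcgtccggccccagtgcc

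Aox3: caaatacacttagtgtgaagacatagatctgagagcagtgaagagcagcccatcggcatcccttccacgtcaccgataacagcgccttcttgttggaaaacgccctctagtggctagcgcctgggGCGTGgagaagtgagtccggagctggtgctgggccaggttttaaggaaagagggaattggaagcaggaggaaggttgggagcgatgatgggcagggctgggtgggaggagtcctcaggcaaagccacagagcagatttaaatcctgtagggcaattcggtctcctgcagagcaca

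The Sult1a1 window lies at chr7:126676369-126676668 on the minus strand, that of Cyp2s1 at chr7:25816476-25816775 on the minus strand, that of Por at chr5:135688895-135689194 on the plus strand and that of Aox3 at chr1:58112886-58113185 on the plus strand. The annotated genes span 126672865 to 126690443 for Sult1a1 and 135670040 to 135735326 for Por. Their windows thus lie inside the gene, and the outer 5′ ends of Sult1a1 and Por were not searched. Counted from the annotated start as 0, the Sult1a1 half-sites begin at bases -212 and -34, the Por cores at -202, -62 and -24, and the Aox3 core at -125. Such short words are common: of 32851 promoter windows of the same length, 19% held AGAACA and 32.4% held GCGTG on either strand. GC content was 46.3% in the Sult1a1 window, 63% for Cyp2s1, 67.3% for Por and 55% for Aox3, against a median of 52.7% over all windows. The longer element TNGCGTG (5.07% of windows), the E-box CACGTG (7.15%), the D-box TTATGTAA (0.938%), the full glucocorticoid element, which is AGAACA and TGTTCT with a gap of 3 bases (0.00913%), the antioxidant element TGACNNNGC (12.4%) and the nuclear receptor half-site AGGTCA (16.3%) were searched on both strands and had no match in these 4 windows. Windows were at hand for 8 of the 10 genes. A match is a string of letters and not a shown binding site.

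Per kilobase of exon, the set spanned a wide range of levels. At night in aged J20+ mice the levels in CPM per kb were 255 for Ephx1, the microsomal epoxide hydrolase, 188 for Gsta4, a glutathione transferase for lipid aldehydes such as 4-hydroxynonenal, and 54.1 for Gstm1, a mu-class glutathione transferase. Sult1a1, the phenol sulfotransferase, was at 32.6, Por, the reductase that passes electrons to microsomal P450 enzymes, at 30.2 and Aox1, an aldehyde oxidase, at 20.3. Cyp1b1, a P450 enzyme acting on estrogens and polycyclic hydrocarbons, was at 2.61, Fmo1, a flavin monooxygenase, at 2.02, Aox3, the second aldehyde oxidase, at 2.01 and Cyp2s1, a P450 enzyme of epithelia, at 1.61.

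In the other 6 groups the same 6 genes stood above the same 4, except that at night in young mice Cyp1b1 (7.08 CPM per kb) stood above Por. Cyp2s1 was lowest of all 10 genes in the young groups, at 0.522 CPM per kb at night, 0.548 after sleep disruption and 0.566 by day, where it rested on 53 to 102 counts per library. Por took the fourth or the fifth place in the aged groups, and in young mice it stood at 4.25 CPM per kb at night, 6.89 after sleep disruption and 5.90 by day, in the sixth or the seventh place. Neighbours in the order often overlapped between libraries, as Aox1 and Sult1a1 did by day in the aged groups. Lengths are the union of annotated exons and therefore approximate.

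**Figure D1:**
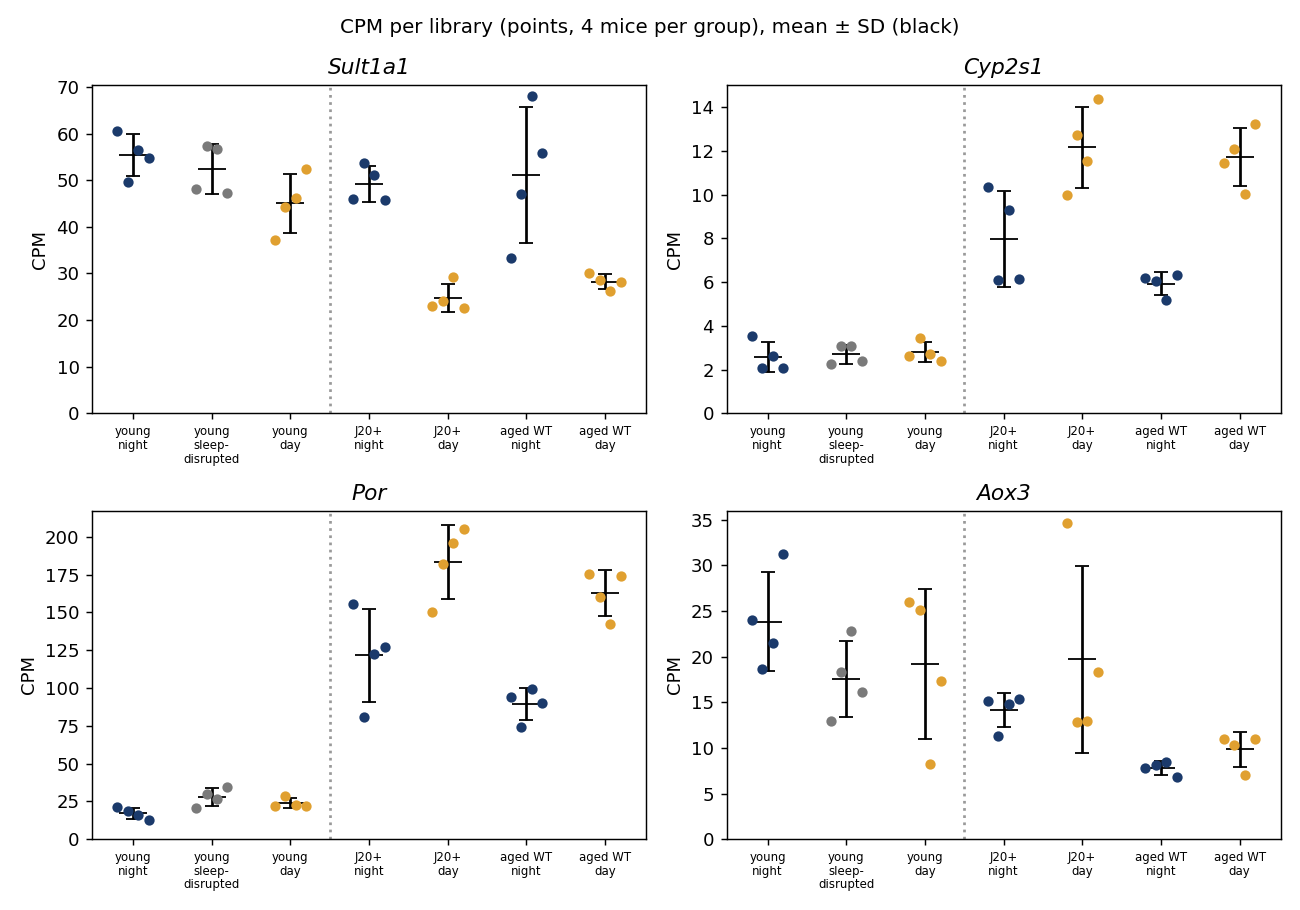
CPM (vertical axis) of Sult1a1, Cyp2s1, Por and Aox3 in each library (points) by group, with the mean and SD of 4 mice in black, and a dotted line between the young and the aged cohort. Sult1a1 is higher at night in all 8 aged night libraries than in the 8 aged day libraries, Aox3 is higher in all 8 J20+ libraries than in the 8 aged wild-type ones, and Por and Cyp2s1 are lower at night in the aged groups with some overlap in J20+ mice.

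The first question was how these enzymes differ between night and day. In aged mice Sult1a1 was about 1.9-fold higher at night, while Cyp2s1 and Por were lower. Sult1a1 is the main sulfotransferase for small phenols and many drugs, Cyp2s1 is known from airway, gut and skin epithelium, and Por is the main electron donor of microsomal P450 enzymes. Of the 7 members not picked for a difference in these libraries, Por alone passed edgeR's test over both genotypes, where 0.124% of the 16065 genes tested passed. Sult1a1 and Cyp2s1 were also past the threshold, but were picked for such a difference. Sult1a1 was higher (called for 0.0685% of genes), and Cyp2s1 and Por were lower (0.056%). Before adjustment p was under 0.05 for 5 members, the picked Sult1a1 and Cyp2s1 among them, and for 23.2% of genes. Counts that include these 2 genes are a description and no test against the share of all genes.

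Sult1a1 had 46.0, 53.6, 51.2 and 45.8 CPM in J20+ night libraries, against 23.1, 24.2, 29.3 and 22.6 CPM in J20+ day libraries. In aged wild-type mice it had 33.4, 46.9, 68.1 and 55.7 CPM at night, against 30.03, 28.7, 26.1 and 28.2 CPM by day. The lowest night library, aged wild-type night 1, stood above the highest day library. Over both genotypes the log2 fold change of night over day was 0.92 ± 0.12 (SE, n = 8 each), a fold of 1.89, and each of the 26 alternative fits gave a value from 0.81 to 1.04. Night and day libraries did not overlap for 0.212% of all genes in this comparison. Sult1a1 was picked for a difference in these libraries, so that share is a description. By genotype the log2 fold change was 0.99 ± 0.17 in J20+ mice and 0.85 ± 0.17 in aged wild-type mice.

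In young mice Sult1a1 had 60.5, 49.7, 56.5 and 54.7 CPM at night, against 37.1, 44.3, 46.2 and 52.4 CPM by day. Of these, 1 night library lay below the highest day library, and the log2 fold change was 0.30 ± 0.11. The day level was 28.3 ± 1.61 CPM in aged wild-type mice and 45.0 ± 6.29 CPM in young mice (SD, n = 4 each). The 3 genes most like Sult1a1 in pattern, of 13524 compared by the smaller of Pearson's r over the 12 young and the 16 aged libraries, were Rnf166 (0.71 and 0.76), the clock gene Per2 (0.70 and 0.74) and Igll1 (0.69 and 0.73). These libraries share their groups and their depth, and the r values are a description.

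Cyp2s1 had 10.3, 6.11, 9.31 and 6.15 CPM in J20+ night libraries, against 9.99, 12.7, 11.6 and 14.4 CPM in J20+ day libraries. The aged wild-type libraries had 6.19, 6.06, 5.16 and 6.34 CPM at night, against 11.5, 12.1, 10.1 and 13.2 CPM by day. All aged wild-type night libraries lay below all day libraries, while 1 J20+ night library lay above the lowest J20+ day library. Aged wild-type groups did not overlap for 26.1% of all genes, and Cyp2s1 was picked for a difference in these libraries. The log2 fold change was -0.79 ± 0.14 over both genotypes, -0.61 ± 0.19 in J20+ mice and -0.98 ± 0.19 in aged wild-type mice. In young mice it was -0.12 ± 0.21, with 2.58 ± 0.680 CPM at night and 2.80 ± 0.460 CPM by day (SD, n = 4 each). The genes nearest to it in pattern were Mansc4 (0.75 and 0.78), Ntn3 (0.72 and 0.77) and Il17re (0.74 and 0.72).

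Por had 156, 80.9, 122 and 127 CPM in J20+ night libraries, against 150.1, 182, 196 and 205 CPM in J20+ day libraries. The aged wild-type libraries had 94.0, 74.3, 99.5 and 89.9 CPM at night, against 175, 160.1, 142 and 174 CPM by day. Only J20+ night 1 reached the day range. Over both genotypes Por fell by 0.73 ± 0.12 on the log2 scale at night, 1.66-fold lower (edgeR quasi-likelihood test, Benjamini-Hochberg adjusted p = 0.0356). The call depended on single libraries: it was lost without J20+ day 3 or 4, without J20+ night 4, without aged wild-type day 3 and without any 1 of the 4 aged wild-type night libraries, with values of -0.79 to -0.69 and adjusted p of 0.0572 to 0.112. By genotype the value was -0.59 ± 0.18 in J20+ mice (adjusted p = 0.616) and -0.87 ± 0.18 in aged wild-type mice (adjusted p = 0.144).

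The young cohort gave the same sign for Por at a far lower level. It had 21.1, 18.8, 16.03 and 12.5 CPM at night, against 21.6, 28.5, 22.5 and 22.2 CPM by day, with all night libraries below all day libraries. Young night and day groups did not overlap for 4.69% of all genes. The log2 fold change was -0.47 ± 0.18 (edgeR adjusted p = 0.456). By day Por stood at 163 ± 15.4 CPM in aged wild-type mice and 23.7 ± 3.18 CPM in young mice (SD, n = 4 each), a gap in which batch and age cannot be told apart.

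**Figure D2:**
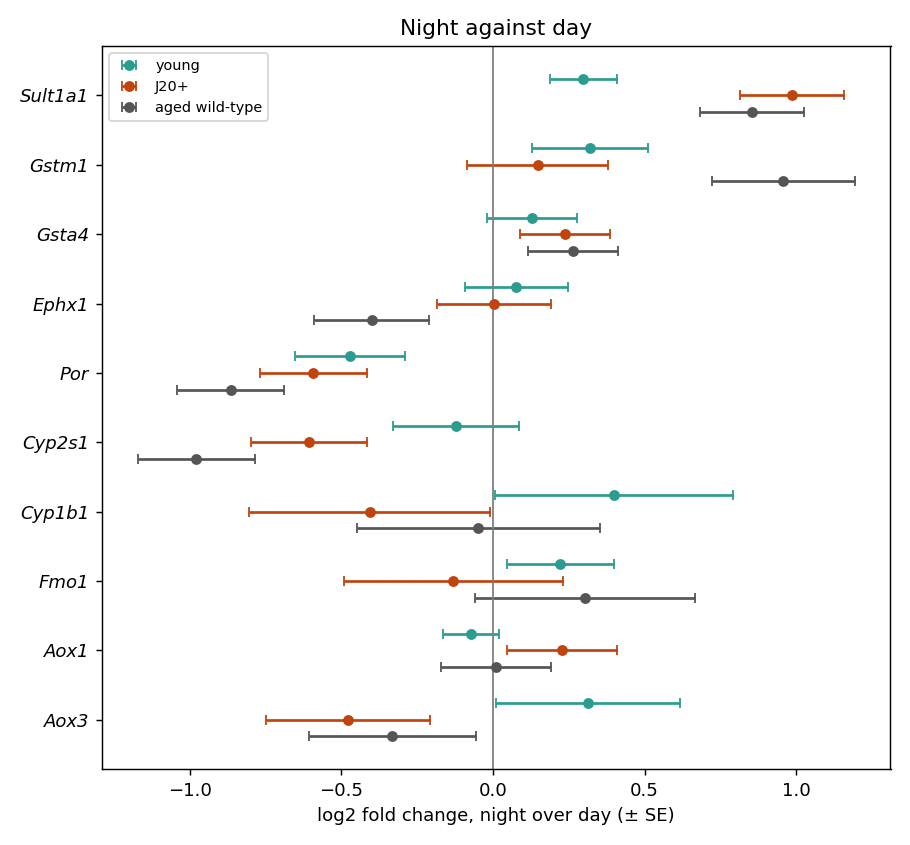
Log2 fold change of night over day (horizontal axis, ± SE) of the 10 genes in young, J20+ and aged wild-type mice, n = 4 night and 4 day libraries each. Sult1a1 is above 0 and Por below 0 in each of the 3 cohorts, and Gstm1 is at 0.15 in J20+ mice and at 0.96 in aged wild-type mice.

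Gstm1 in J20+ mice had 64.1, 123, 62.3 and 69.0 CPM at night, against 107, 58.9, 57.8 and 64.0 CPM by day. The aged wild-type libraries had 128, 132, 108 and 125 CPM at night, against 58.8, 71.8, 68.4 and 55.0 CPM by day. The J20+ groups overlapped. The aged wild-type groups did not, as for 26.1% of all genes. The log2 fold change was 0.15 ± 0.23 in J20+ mice (edgeR adjusted p = 0.944) and 0.96 ± 0.24 in aged wild-type mice (adjusted p = 0.144). The difference between these changes was -0.81 ± 0.33 (adjusted p = 0.366).

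Of the 6 aged libraries with a neural score above 5, 5 had 107 to 132 CPM of Gstm1. J20+ night 2 (neural score 5.12) and J20+ day 1 (5.92) had 123 and 107 CPM, above the 57.8 to 69.0 CPM of the other 6 J20+ libraries. The sixth library, aged wild-type day 3 (5.24), had 68.4 CPM, and aged wild-type night 3, with a score of 4.25, had 108 CPM. Aged wild-type night libraries had a neural score of 6.05 ± 1.25, against 3.20 ± 1.70 in the day libraries (SD, n = 4 each, exact permutation p = 0.0571 and 0.388 adjusted over 108 marker tests). The epithelial score was 9.95 ± 0.28 at night, against 10.69 ± 0.17 by day (exact permutation p = 0.0286, adjusted p = 0.388), and 0.0286 is the smallest p that 4 against 4 allows. With the neural score in the fit, the night change of Gstm1 in aged wild-type mice was 0.54 ± 0.21 (edgeR adjusted p = 0.846) and that of Por -0.61 (adjusted p = 0.846). Because the score differed between night and day in these mice, this fit cannot tell its part from that of time. Over both genotypes Por was at -0.62 with the score in the fit (adjusted p = 0.0431), and Sult1a1 at 0.97. Leaving out the 6 libraries with a score above 5 gave -0.68 for Por (adjusted p = 0.0772) and 1.04 for Sult1a1.

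In J20+ mice 2 of the 10 genes had night and day libraries that did not overlap (Sult1a1 and Gsta4, both higher), against 3.61% of all genes. None passed edgeR's test in that comparison, where 0.0436% of genes did. Unadjusted p was under 0.05 for 3 members and 7.41% of genes. DESeq2 called 2 members and 0.492% of genes, and limma-voom 3 members and 1.71% of genes. Among aged wild-type libraries 4 of the 10 did not overlap (Sult1a1 and Gstm1 higher, Por and Cyp2s1 lower), against 26.1% of all genes. None passed edgeR's test there, where 0.0124% of genes did. Unadjusted p was under 0.05 for 4 members and 31.1% of genes. DESeq2 called 4 members and 8.65% of genes, while limma-voom called 5 members and 51.7% of genes, a member share no higher than that of all genes. In young mice Por alone did not overlap, against 4.69% of all genes. None passed edgeR's test, where 0.267% of genes did. Unadjusted p was under 0.05 for 2 members and 9.39% of genes. DESeq2 called 0 members and 1.72% of genes, and limma-voom 3 members and 18.7% of genes. Sult1a1 and Cyp2s1, picked for differences in these libraries, are among the members with edgeR's unadjusted p under 0.05 in both aged comparisons. In young mice Sult1a1 is among them. Counts that include picked genes are a description and no test against the share of all genes.

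None of the remaining members passed for night against day. Gsta4 had 224, 259, 238 and 233 CPM in J20+ night libraries, against 181, 209.6, 199 and 219 CPM in J20+ day libraries, which all lay lower. Groups did not overlap for 3.61% of all genes there. Its log2 fold change was 0.24 ± 0.15 in J20+ mice (edgeR adjusted p = 0.660), 0.26 ± 0.15 in aged wild-type mice (adjusted p = 0.210) and 0.13 ± 0.15 in young mice (adjusted p = 0.786). Ephx1 was at 498 ± 81.5 CPM in J20+ night libraries, against 496 ± 80.4 CPM by day. It was at 449 ± 115 CPM in aged wild-type night libraries, against 593 ± 56.2 CPM by day (SD, n = 4 each), a log2 fold change of -0.40 ± 0.19 (edgeR adjusted p = 0.161). That value was 0.06 without the 6 libraries of high neural score, which leaves 1 aged wild-type night library.

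Aox1 was at 177 ± 43.4 CPM in J20+ night libraries, against 151 ± 27.4 CPM by day, and at 173 ± 25.3 CPM in aged wild-type night libraries, against 172 ± 19.4 CPM by day (SD, n = 4 each). Its night-day log2 fold change was 0.23 ± 0.18 in J20+ mice, 0.01 ± 0.18 in aged wild-type mice and -0.07 ± 0.09 in young mice (edgeR adjusted p = 0.736, 0.972 and 0.811). In Cyp1b1 and Fmo1 a single library stood apart: J20+ day 1 held 42.9 CPM of Cyp1b1 where the other 3 held 11.8 to 13.1, and 29.7 CPM of Fmo1 where the other 3 held 8.13 to 9.83. Their night-day values were -0.41 ± 0.40 and -0.13 ± 0.36 in J20+ mice and -0.05 ± 0.40 and 0.30 ± 0.36 in aged wild-type mice. Without J20+ day 1 the J20+ values turned to 0.26 for Cyp1b1 and 0.55 for Fmo1 (edgeR adjusted p = 0.958 and 0.957). In young mice Cyp1b1 was at 0.40 ± 0.39, Gstm1 at 0.32 ± 0.19, Fmo1 at 0.22 ± 0.18 and Ephx1 at 0.08 ± 0.17 (adjusted p of 0.620 to 0.899), and Cyp1b1 was at -0.15 without young night 4.

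Over both aged genotypes the night-day value was 0.55 ± 0.17 for Gstm1, 0.25 ± 0.11 for Gsta4, 0.12 ± 0.13 for Aox1, 0.09 ± 0.26 for Fmo1, -0.20 ± 0.13 for Ephx1 and -0.23 ± 0.28 for Cyp1b1 (edgeR adjusted p of 0.143 to 0.832). Aox3 was at -0.41 ± 0.19 over both genotypes, -0.48 ± 0.27 in J20+ mice, -0.33 ± 0.27 in aged wild-type mice and 0.31 ± 0.30 in young mice. Without J20+ day 1 it was at -0.22 over both genotypes and -0.06 in J20+ mice.

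**Figure D3:**
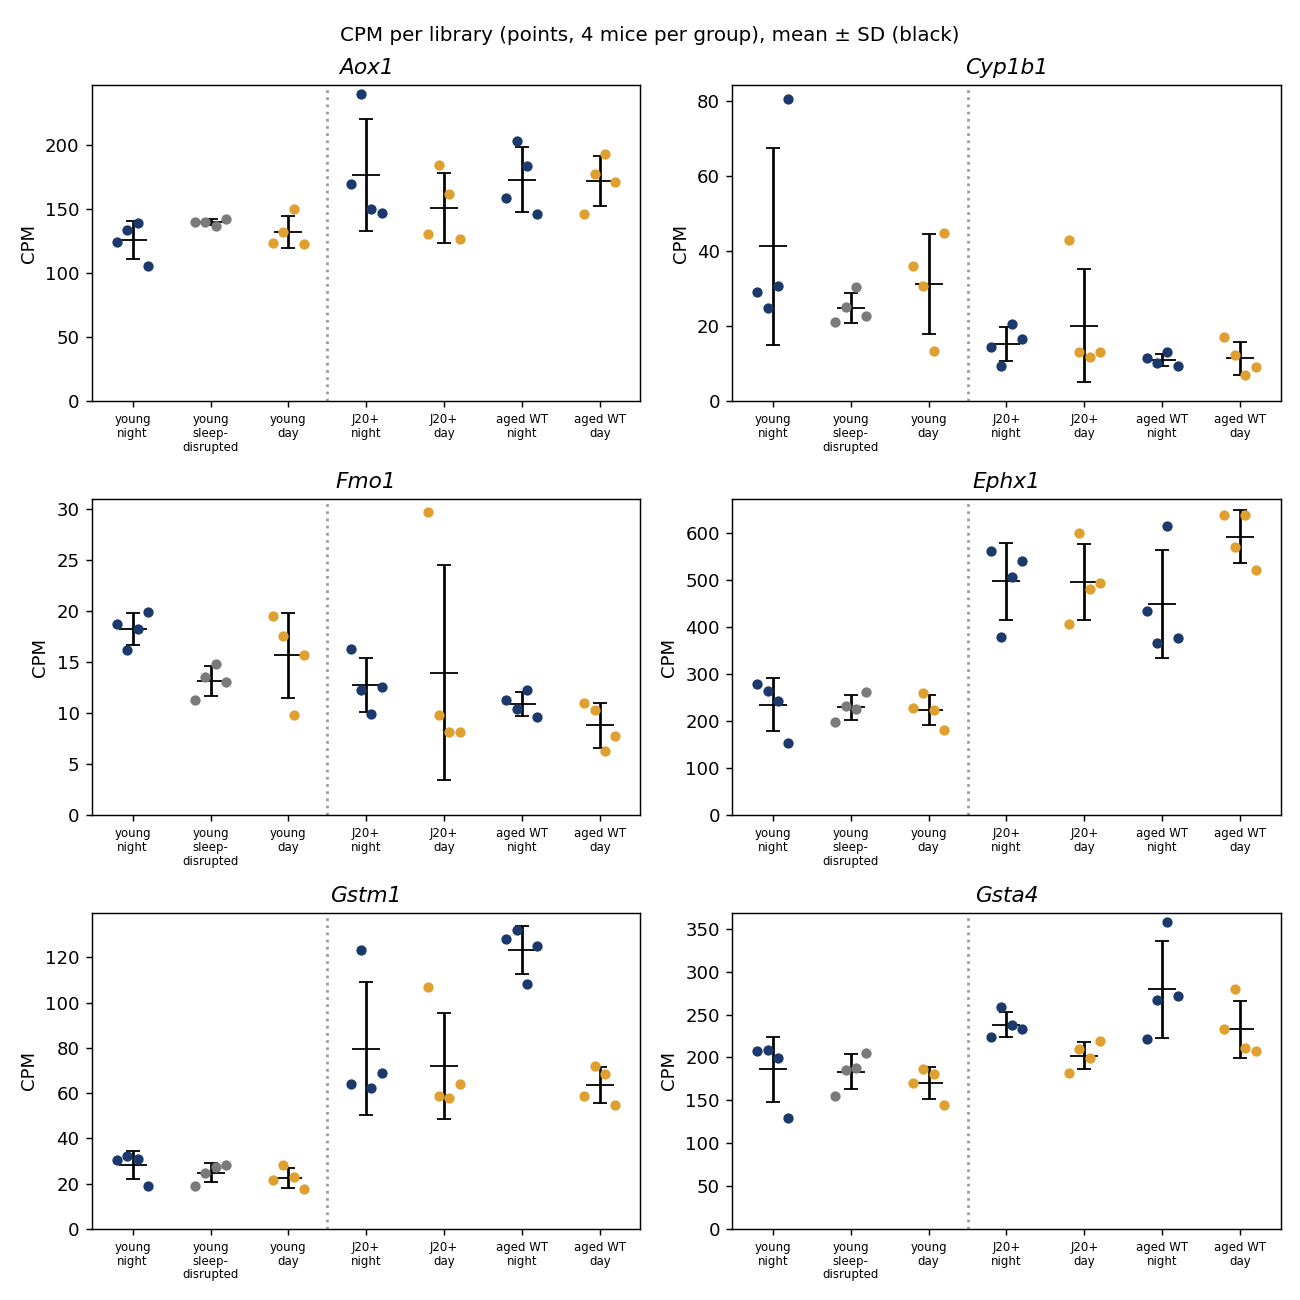
CPM (vertical axis) of Aox1, Cyp1b1, Fmo1, Ephx1, Gstm1 and Gsta4 in each library (points) by group, with the mean and SD of 4 mice in black, and a dotted line between the young and the aged cohort. The 4 aged wild-type night libraries stand at 108 to 132 CPM for Gstm1, and J20+ day 1 stands apart from its group for Cyp1b1 (42.9 CPM), Fmo1 (29.7 CPM) and Gstm1 (107 CPM).

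The second question was whether the amyloid precursor protein transgene goes with different levels. Aox3 was higher in J20+ mice at both times. Mouse Aox3 oxidises azaheterocycles and aldehydes, and it lies beside Aox1 in a cluster of related oxidase genes on chromosome 1, at 58113135 to 58202221, with Aox1 at 58029809 to 58106410. Reads shared between such paralogs could be split by the counting, whose handling of them is not given in the sources used here.

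At night Aox3 had 15.1, 11.3, 14.8 and 15.3 CPM in J20+ libraries, against 7.79, 8.15, 8.50 and 6.80 CPM in aged wild-type libraries. By day it had 34.6, 12.8, 12.97 and 18.4 CPM in J20+ libraries, against 11.01, 10.3, 7.04 and 10.98 CPM in aged wild-type libraries. All 8 J20+ libraries lay above all 8 aged wild-type libraries, a separation found for 0.0249% of all genes in this comparison. Aox3 was picked for a difference in these libraries, so that share is a description and no measure of its rarity. The log2 fold change was 0.93 ± 0.19 over both times, a fold of 1.90, with 0.86 ± 0.27 at night and 1.00 ± 0.27 by day. The day value was 0.58 without J20+ day 1. Alternative fits gave 0.65 to 1.03 over both times. In young mice, all wild-type, Aox3 averaged 23.8 ± 5.41 CPM at night, 17.5 ± 4.14 CPM after sleep disruption and 19.2 ± 8.23 CPM by day (SD, n = 4 each). The neighbouring gene Aox1 was at -0.08 ± 0.13 in J20+ against aged wild-type mice over both times (edgeR adjusted p = 0.699).

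Across libraries the genes nearest to Aox3 in pattern were Adam12 (r of 0.93 in young and 0.93 in aged libraries), Mrc1 (0.87 and 0.90), a macrophage receptor, and the ceruloplasmin gene Cp (0.90 and 0.87). J20+ day 1, with the highest Aox3, also had the highest fibroblast score of the aged libraries, 6.40 log2 CPM. Of the 8 fibroblast genes 7 were scored, none at 0 in any library, and their score was 4.73 to 6.40 over the 8 J20+ libraries and 4.51 to 5.22 over the 8 aged wild-type ones (means 5.15 and 4.78, permutation p = 0.0569, 0.388 adjusted). With a score of 21 fibroblast, endothelial and mural genes in the fit, the Aox3 difference over both times was 0.66 ± 0.12. Leaving out J20+ day 1 gave 0.74, and leaving out both J20+ day 1 and J20+ night 2 gave 0.77.

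**Figure D4:**
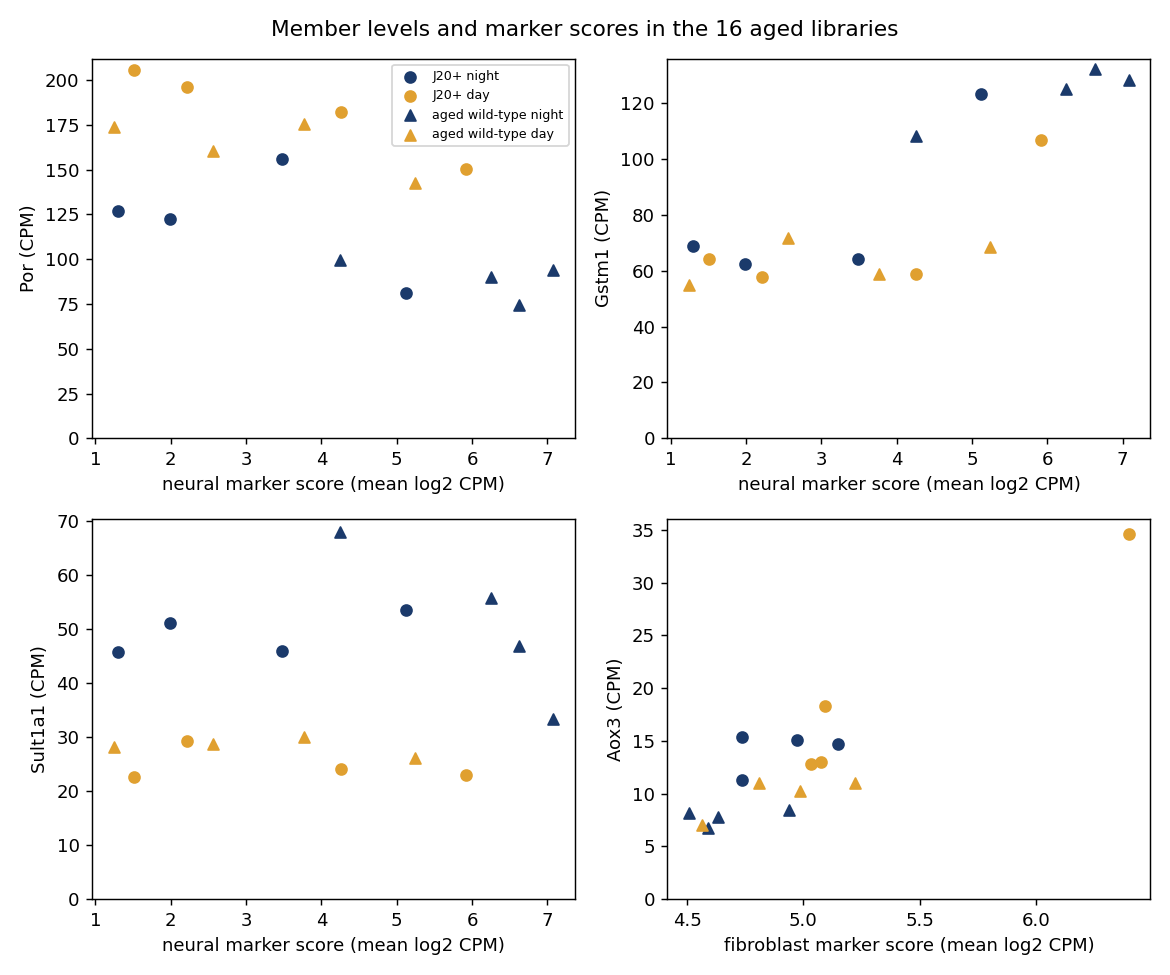
CPM of Por, Gstm1 and Sult1a1 against the neural marker score, and of Aox3 against the fibroblast score (both mean log2 CPM), in the 16 aged libraries, circles for J20+ and triangles for aged wild-type mice, dark for night and light for day. The Gstm1 panel shows the 2 J20+ libraries at 107 and 123 CPM at scores of 5.92 and 5.12, and the Aox3 panel shows J20+ day 1 at 34.6 CPM and a score of 6.40.

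No member passed edgeR's test between J20+ and aged wild-type mice. At night 0.00622% of genes passed, and 4 members and 31.9% of genes had an unadjusted p under 0.05. DESeq2 called 1 member at night and 18.7% of genes, and limma-voom 6 members and 72.1% of genes. By day 0% of genes passed, and 1 member and 1.87% of genes had an unadjusted p under 0.05. DESeq2 called 0 members and 0% of genes by day, and limma-voom 1 member and 14.7% of genes. Over both times 0% of genes passed, and 3 members and 20% of genes had an unadjusted p under 0.05. DESeq2 called 1 member and 2.34% of genes over both times, and limma-voom 5 members and 71.3% of genes. Aox3 was the 1 member whose groups did not overlap at night, where 7.15% of all genes did not, and by day, where 1.36% did not. Aox3, picked for a difference in these libraries, is among the members with edgeR's unadjusted p under 0.05 in each of these comparisons. Cyp2s1, also picked, is among them at night. Counts that include picked genes are a description here too.

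At night Gstm1 was at -0.63 ± 0.23 in J20+ against aged wild-type mice (edgeR adjusted p = 0.103) and Por at 0.44 ± 0.18 (adjusted p = 0.114). By day the values were 0.18 ± 0.23 and 0.17 ± 0.18 (adjusted p = 0.989 for both). Both night values depended on J20+ night 2, which had the highest Gstm1 and the lowest Por of its group. Without it 4 members passed at night, where 57.7% of all genes then passed: Gstm1 was at -0.91 (adjusted p = 0.00223) and Por at 0.60 (adjusted p = 0.00360), with Aox3 at 0.96 and Cyp2s1 at 0.54. Over both times, 3 passed without it, where 42.4% of all genes passed, with Por at 0.39 (adjusted p = 0.00793), Gstm1 at -0.37 (adjusted p = 0.0323) and Aox3 at 0.98. These shares of members lie below those of all genes. The neural score was 2.97 ± 1.70 in J20+ night libraries and 6.05 ± 1.25 in aged wild-type night libraries (SD, n = 4 each, exact permutation p = 0.0571, adjusted p = 0.388). With that score in the fit Gstm1 was at -0.22 and Por at 0.16 at night (edgeR adjusted p = 0.954 and 0.964). Because the score differed between these genotype groups, this fit cannot tell its part from that of genotype.

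Cyp1b1 was at 0.64 ± 0.28 over both times (edgeR adjusted p = 0.241), at 0.20 with the connective tissue score in the fit and at 0.38 without J20+ day 1 and J20+ night 2. Fmo1 was at 0.44 ± 0.26 (adjusted p = 0.315), and at 0.07 and 0.11 under those settings. By day Cyp1b1 was at 0.81 ± 0.40 and Fmo1 at 0.66 ± 0.36, and without J20+ day 1 they were at 0.14 and -0.02. At night they were at 0.46 ± 0.40 and 0.22 ± 0.36. Gsta4 was at -0.22 ± 0.11 (adjusted p = 0.260) and Ephx1 at -0.05 ± 0.13 (adjusted p = 0.807). Sult1a1 was at -0.12 ± 0.12, Cyp2s1 at 0.24 ± 0.14, Gstm1 at -0.23 ± 0.17 (adjusted p = 0.404) and Por at 0.31 ± 0.12 (adjusted p = 0.233). At night Cyp2s1 was at 0.43 ± 0.19, Ephx1 at 0.15 ± 0.19, Aox1 at 0.03 ± 0.18, Sult1a1 at -0.06 ± 0.17 and Gsta4 at -0.23 ± 0.15. By day the same 5 were at 0.05 ± 0.19, -0.26 ± 0.19, -0.19 ± 0.18, -0.19 ± 0.17 and -0.20 ± 0.15.

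**Figure D5:**
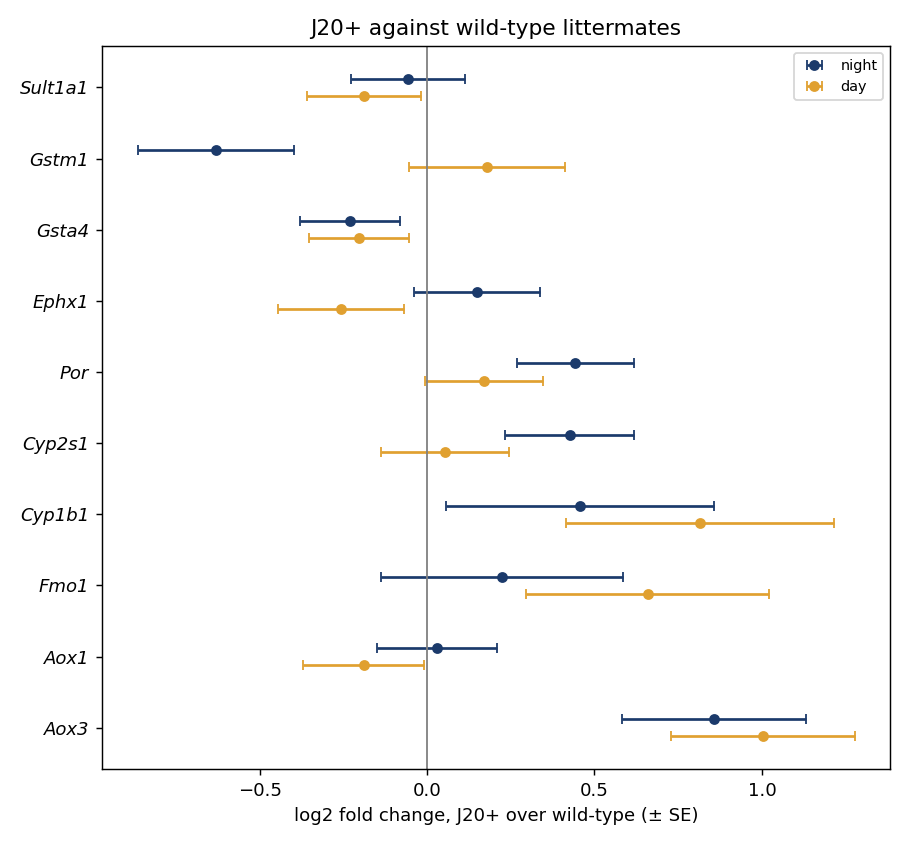
Log2 fold change of J20+ over aged wild-type mice (horizontal axis, ± SE) of the 10 genes at night and by day, n = 4 J20+ and 4 wild-type libraries each. Aox3 is at 0.86 at night and 1.00 by day, and Gstm1 at -0.63 at night and 0.18 by day.

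A further comparison asked whether the night-day change itself differed between genotypes. None of the 10 genes passed edgeR's test of that difference, which 0% of genes passed. Unadjusted p was under 0.05 for 1 member and 12.4% of genes. DESeq2 called 0 members and 0.056% of genes, and limma-voom 2 members and 33.5% of genes. Gstm1, given above, was that 1 gene. Leaving out J20+ night 2 gave it -1.09 (edgeR adjusted p = 0.0422), in a fit where 20.9% of all genes passed, and leaving out J20+ day 1 gave -0.50 (adjusted p = 0.772). Sult1a1 differed by 0.13 ± 0.24 between genotypes, Cyp2s1 by 0.37 ± 0.27 and Por by 0.27 ± 0.25 (edgeR adjusted p = 0.610 for Por). Ephx1 was at 0.41 ± 0.27, Aox1 at 0.22 ± 0.26, Gsta4 at -0.03 ± 0.21, Aox3 at -0.15 ± 0.39, Cyp1b1 at -0.36 ± 0.56 and Fmo1 at -0.43 ± 0.51. The last 3 were at 0.32, 0.36 and 0.30 without J20+ day 1.

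Sleep disruption before the day collection was compared with an undisturbed day in young mice. Sult1a1, Aox3 and Cyp2s1 were picked by time or genotype and not by this contrast. It shares its undisturbed day libraries with the young night-day contrast, however, and the members were chosen with earlier results of these data known. None of the 10 passed edgeR's test, as for 0% of all genes. Before adjustment p was under 0.05 for 0 members and 2.4% of genes, and DESeq2 and limma-voom called 0 members and 0% of genes. The lowest adjusted p was 0.861, and no member had groups that did not overlap, against 1.97% of all genes. Sult1a1 had 48.2, 57.4, 56.6 and 47.3 CPM after sleep disruption, against 37.1, 44.3, 46.2 and 52.4 CPM by undisturbed day, at 0.22 ± 0.11 (edgeR adjusted p = 0.861). Por had 20.4, 29.6, 26.5 and 34.3 CPM after sleep disruption, against 21.6, 28.5, 22.5 and 22.2 CPM by undisturbed day, at 0.22 ± 0.18 (adjusted p = 0.861). Both genes had groups that overlapped. Cyp1b1 was at -0.33 ± 0.39, Fmo1 at -0.25 ± 0.18, Aox3 at -0.13 ± 0.30, Cyp2s1 at -0.05 ± 0.21, Ephx1 at 0.04 ± 0.17, Aox1 at 0.08 ± 0.09, Gsta4 at 0.11 ± 0.15 and Gstm1 at 0.14 ± 0.19.

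Night was also set against sleep disruption in young mice. None of the 10 passed edgeR's test, against 0.38% of all genes. Unadjusted p was under 0.05 for 2 members and 9.7% of genes. DESeq2 called 1 member and 2.08% of genes, and limma-voom 1 member and 7.38% of genes. Por was at -0.70 ± 0.18 (edgeR adjusted p = 0.168), with 12.5 to 21.1 CPM at night and 20.4 to 34.3 CPM after sleep disruption, so that 1 night library reached the range of the other group. Fmo1 had 18.8, 16.2, 18.3 and 19.9 CPM at night, against 11.3, 13.6, 14.9 and 13.03 CPM after sleep disruption. It was the 1 member whose groups did not overlap, against 7.83% of all genes, at 0.47 ± 0.18 (edgeR adjusted p = 0.376). The fibroblast score was 4.65 ± 0.37 at night and 4.21 ± 0.16 after sleep disruption (SD, n = 4 each, exact permutation p = 0.0286, adjusted p = 0.388), and with the connective tissue score in the fit Fmo1 was at 0.23 (edgeR adjusted p = 0.777). Cyp1b1 was at 0.73 ± 0.40 (adjusted p = 0.634), at 0.24 with that score in the fit and at 0.18 without young night 4, which held 80.6 CPM where the other 3 night libraries held 24.8 to 30.7 CPM. Aox3 was at 0.44 ± 0.30, Gstm1 at 0.18 ± 0.19, Sult1a1 at 0.08 ± 0.11, Ephx1 at 0.04 ± 0.17, Gsta4 at 0.02 ± 0.15, Cyp2s1 at -0.07 ± 0.21 and Aox1 at -0.15 ± 0.09. Both young contrasts with day share the day libraries, and both contrasts with sleep disruption share those.

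The wider pathway was read from a list of 104 other genes in 7 groups, of which 82 were tested in aged mice and 80 in young mice. At most 1 of them passed in any comparison, and it was Dbp, a clock-controlled transcription factor of the PAR bZIP family that in mouse liver drives daily expression of detoxification genes. Dbp had 26.3, 16.8, 11.3 and 12.6 CPM in J20+ night libraries, against 37.5, 60.2, 53.1 and 65.2 CPM in J20+ day libraries. In aged wild-type mice it had 18.3, 15.7, 18.9 and 16.2 CPM at night, against 41.4, 79.4, 47.1 and 49.0 CPM by day. The groups did not overlap in either genotype, as for 3.61% of all genes in J20+ and 26.1% in aged wild-type mice. Dbp fell by 1.67 ± 0.19 on the log2 scale over both (edgeR adjusted p = 0.00126) and by 1.69 ± 0.27 in J20+ mice (adjusted p = 0.0451). In aged wild-type mice it was at -1.65 ± 0.27 (adjusted p = 0.0756), and in young mice at -1.68 ± 0.39 (adjusted p = 0.128).

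Over both aged genotypes, the 82 tested genes had a median night-day log2 fold change of -0.09, against 0.01 over all genes, with 0 called higher and 1 lower. Of all genes, 51.5% were above 0. The 16 tested glutathione transferases had a median of 0.14, with 12 above 0 and none called, and the 13 hydrolases and carbonyl reductases a median of -0.18, with 11 below 0 and none called. Of the 18 phase I oxidation genes 10 were above 0 (median 0.08), and of the 5 sulfation genes, which include the enzymes that make the sulfate donor, 3 were above 0 (median 0.33), with none called in either group. The 14 regulators had a median of -0.17, with 12 below 0 and Dbp called. The 5 electron partners of phase I had a median of -0.05 with 4 below 0, and the 11 other conjugation genes a median of -0.24 with 8 below 0, none of them called. In aged wild-type and in J20+ mice alone the median of the 82 genes was -0.19 and 0.02. It was 0.19 and 0.13 for glutathione transferases, -0.35 and -0.02 for hydrolases and carbonyl reductases and -0.26 and -0.01 for regulators. Phase I oxidation genes were at -0.22 and 0.06 and sulfation genes at 0.06 and 0.34. Electron partners were at -0.17 and 0.07, and other conjugation genes at -0.42 and -0.07.

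Nqo1 in aged wild-type mice, a quinone reductase, had 71.8, 64.3, 95.9 and 70.6 CPM at night, against 146, 164, 117 and 157 CPM by day (-0.95 ± 0.26, edgeR adjusted p = 0.144). Mgst3, a microsomal glutathione transferase, had 25.1, 31.7, 26.8 and 29.6 CPM at night, against 17.3, 18.1, 18.7 and 13.9 CPM by day (0.74 ± 0.23, adjusted p = 0.144). Neither pair of aged wild-type groups overlapped, as for 26.1% of all genes. In J20+ mice both genes had groups that overlapped: Nqo1 averaged 102 ± 37.3 CPM at night, against 131 ± 31.3 CPM by day, and Mgst3 18.1 ± 7.84 CPM at night, against 14.0 ± 2.10 CPM by day (SD, n = 4 each). J20+ night 2, with its high neural score, had the lowest Nqo1 (51.7 CPM) and the highest Mgst3 (29.6 CPM) of the J20+ libraries. In young mice Nqo1 was at -0.38 ± 0.08 (edgeR adjusted p = 0.0854) and Maoa, a monoamine oxidase, at -0.36 ± 0.09 (adjusted p = 0.152) for night over day. Against sleep disruption, young night gave -1.91 ± 0.39 for Dbp (adjusted p = 0.0653), -0.68 ± 0.16 for Tef, a relative of Dbp (adjusted p = 0.123), and -0.32 ± 0.08 for Nqo1 (adjusted p = 0.138).

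Between genotypes none of the 82 tested pathway genes passed. At night the smallest p belonged to Tiparp, a target and repressor of the aryl hydrocarbon receptor (1.26 ± 0.35), Pon3, a lactonase (1.99 ± 0.56), and Ppara, a lipid-sensing nuclear receptor (0.96 ± 0.29), all with an edgeR adjusted p of 0.0917. Each of these genes had groups that overlapped, and 31.9% of all genes had an unadjusted edgeR p under 0.05 in this comparison. Whether these values move with the neural score was not tested. Pon3 had 328, 50.7, 419 and 389 CPM in J20+ night libraries, against 97.7, 57.0, 88.1 and 55.8 CPM in aged wild-type night libraries, with J20+ night 2 below all of them. Over both times Tiparp was at 0.78 ± 0.25, Pon3 at 1.14 ± 0.39 and Rxra, the common partner of many nuclear receptors, at 0.65 ± 0.22 (adjusted p = 0.233 each). By day Ces1d, a carboxylesterase (2.23 ± 0.85), Fmo2, a flavin monooxygenase (1.26 ± 0.51), and Tpmt, the thiopurine methyltransferase (-0.33 ± 0.17), had an adjusted p of 0.989. J20+ day 1 held 10.7 CPM of Fmo2 and 10.2 CPM of Ces1d. The other libraries of its group held 2.41 to 3.00 CPM of Fmo2 and 0.552 to 1.26 CPM of Ces1d. After sleep disruption Gstp1 (0.62 ± 0.26), Gsto1 (0.28 ± 0.14), both glutathione transferases, and Ahr, the aryl hydrocarbon receptor (-0.36 ± 0.20), were at 0.861. For the difference of the night-day change Nat1, an arylamine acetyltransferase, Aldh1a1, a retinaldehyde dehydrogenase, and Ces1d had the smallest p, at -3.12 ± 0.99, -4.42 ± 1.57 and -3.27 ± 1.17 (edgeR adjusted p = 0.359 each). J20+ day 1 held more of all 3 than the other libraries of its group, at 1.46, 43.3 and 10.2 CPM.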

How the data were processed

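Poly(A) RNA was sequenced as stranded libraries (TruSeq Stranded mRNA, NovaSeq) from dissected choroid plexus of isoflurane-anaesthetised, saline-perfused mice, per the labels' protocols. The authors deposited unnormalized read counts by Entrez identifier, 1 table for the 16 aged and 1 for the 12 young libraries. Per the submitters' processing notes, the build was mm10 and the tools included HISAT2 2.2.1 and featureCounts 2.0.1, beside cutadapt, FastQC 0.11.8, DESeq2 and Picard 2.18.2. Not given in the sources used here are the strand setting, the annotation and the treatment of multiply aligned reads. Symbols came from RefSeq's GRCm38.p6 table (25275 of 27179 identifiers, 93.0%).

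Young and aged libraries were fitted apart in edgeR 4.0.16 (R 4.3.3): filterByExpr by group, TMM scaling, 1 coefficient per group, robust quasi-likelihood test, Benjamini-Hochberg adjustment over the 16065 genes tested in aged or the 14983 in young mice, threshold 0.05. "Called" and "passed" mean past it. Standard errors are the log2 fold change over the square root of F. The fit was tested on simulated counts drawn independently for each gene and library. Those counts held no tissue difference shared between genes, so the test does not cover the unequal tissue of the aged libraries. Marker scores are mean log2 CPM (prior count 2), compared by exact 2-sided permutation tests over libraries. Replicate numbers name separate mice in record order. Replicate libraries differed beyond sampling noise, so none was merged. P-values measure the spread between these libraries, which may in part be technical.

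All 10 members were named in every comparison, with each called gene of the pathway list, or the 3 of smallest p where none was called, and the 3 genes most like Sult1a1, Aox3 and Cyp2s1. The members and lists were chosen with earlier results of these data known. Alternatives were upper-quartile or RLE scaling, limma-voom 3.58.1 with quality weights, DESeq2 1.42.0, leaving out the filter, a minimum of 10 CPM in 4 libraries, a neural or a stromal score as covariate, the compared groups alone, each library left out, 2 J20+ libraries (day 1 and night 2) left out that stood apart in earlier results, and 6 aged libraries of neural score above 5 left out, the last chosen after seeing the data. Read depth limits the precision of Cyp2s1 in young mice most.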

Additional observations from a re-analysis of the deposited data

Results flagged for a closer look

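The 70 combinations of member and group were each checked for 1 library far from the other 3 (Dixon's test), which chance passes in about 1 in 20 groups. In 9 of them a library stood apart. J20+ day 1 held 42.9 CPM of Cyp1b1 (the other 3 libraries 11.8 to 13.1 CPM), 29.7 CPM of Fmo1 (8.13 to 9.83 CPM) and 107 CPM of Gstm1 (57.8 to 64.0 CPM). J20+ night 2 held 123 CPM of Gstm1 (62.3 to 69.0 CPM) and 11.3 CPM of Aox3 (14.8 to 15.3 CPM). Young night 4 held 80.6 CPM of Cyp1b1 (24.8 to 30.7 CPM), 18.8 CPM of Gstm1 (30.5 to 32.5 CPM) and 129 CPM of Gsta4 (199 to 209 CPM). Young day 2 held 28.5 CPM of Por (21.6 to 22.5 CPM). Young night 4 also had the highest macrophage score of the young libraries (4.28 log2 CPM, against 2.27 to 2.83 in the other 3 night libraries), and J20+ day 1 the highest fibroblast and macrophage scores of the aged libraries (6.40 and 4.19). With the connective tissue score (fibroblast, endothelial and mural genes) in the fit, Cyp1b1 was at 0.06 for young night against day, against 0.40 without the score, and at 0.20 for J20+ against aged wild-type mice over both times, against 0.64. The macrophage score entered no fit, and its part in the values was not tested.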

How the results depend on the processing

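Counts of members called moved as follows, each with the share of all genes called in the same fit. Counts that include Sult1a1, Aox3 or Cyp2s1, picked for differences in these libraries, are a description. With DESeq2 they were 1 (2.08%) for young night against sleep disruption, 2 (0.492%) for J20+ and 4 (8.65%) for aged wild-type night against day, and 1 for J20+ against wild-type at night (18.7%) and over both times (2.34%). With limma-voom they were 3 (18.7%) for young night against day, 1 (7.38%) for young night against sleep disruption, 3 (1.71%) for J20+, 5 (51.7%) for aged wild-type and 5 (34.2%) for both genotypes at night against day, 1 by day (14.7%), 6 at night (72.1%) and 5 over both times (71.3%) for J20+ against wild-type, and 2 (33.5%) for the difference of the changes. Aged night against day over both genotypes, 3 in the reported fit, gave 1 without the filter (0.0585%), 1 with the stromal score (0.0809%), 1 without the 6 libraries of high neural score (0.0619%), 2 with the neural score (0.131%) and 4 without J20+ day 1 and night 2 (1.2%). The neural score gave 1 (Por, 0.594%) for young night against sleep disruption, and the compared groups alone gave 4 (26.2%) for aged wild-type night against day. Without J20+ day 1 and night 2, 5 passed at night (62.9%) and 4 over both times (56.6%) between genotypes. Without the 6 high-neural libraries 1 passed in J20+ (0.0371%) and 1 in aged wild-type (0.0743%) night against day, and 4 at night (27.7%) and 5 over both times (24.8%) between genotypes. That setting leaves 1 aged wild-type night library, taken to vary like the other groups.

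Leaving out each library in turn gave 1 to 3 for aged night against day over both genotypes (1 without J20+ day 3 or 4, J20+ night 4, aged wild-type day 3 or any aged wild-type night library), 0 to 1 for aged wild-type night against day (1 without night 1 or night 3) and for the difference of the changes, 0 to 4 at night and 0 to 3 over both times between genotypes, and 0 to 0 elsewhere. Without J20+ night 2 the counts were 4 at night (57.7%), 3 over both times (42.4%) and 1 for the difference (20.9%). Without aged wild-type day 4 it was 1 over both times (3.51%), namely Aox3, which was picked for its genotype difference in these libraries. Calls over all genes moved far more between settings: 20 genes for aged night against day became 10 without the high-neural libraries and 5492 with limma-voom, 40 for young night against day 13 with the compared groups alone and 2797 with limma-voom, and 1 for J20+ against wild-type at night 9414 without J20+ night 2 and 11588 with limma-voom. No called member turned its sign. No paired analysis was possible because replicate numbers only name separate mice.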
